A study of Gallus gallus with 8 samples.

Results

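The miR-181 family was described in facial ectoderm of the chick embryo, dissected from the frontonasal ectodermal zone, which signals to the growing upper jaw. Its members were chosen by name, as every row of the deposited table named miR-181 with no further digit in the number, and this took 5 of 994 rows. These were gga-miR-181a-5p, gga-miR-181b-5p, gga-miR-181a-3p, gga-miR-181b-1-3p and gga-miR-181b-2-3p, where 5p and 3p name the 2 arms of a precursor hairpin. The family itself was selected on measured values, since results of the comparison between stages in these same 8 libraries were known when it was picked. The stage differences of its members are therefore given as a description, with no test of their own.

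The compared groups were Hamburger-Hamilton stage 22 (HH22, 72 h of incubation, replicates 1 to 4) and stage 18 (HH18, 48 h, replicates 5 to 8). All embryos were untreated Rhode Island Red chickens, and each of the 4 libraries per stage came from the pooled ectoderm of 2 chicks. The comparison asks which miRNAs differ after and before the onset of SHH (Sonic hedgehog) expression in this tissue.

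A miRNA precursor is a hairpin whose arms can each give a mature strand. Usually the strand from 1 arm is loaded into an Argonaute protein and guides it to messenger RNAs, and the other strand is degraded. miR-181a and miR-181b carry the same seed, the short stretch that pairs with targets, so their predicted targets largely overlap. The family is known from blood cells: in mouse thymocytes miR-181a raises the sensitivity of T cell receptor signalling, and in mouse myoblasts it takes part in muscle differentiation. In the GRCg7b annotation 4 chicken genes carry the family, in 2 pairs of a miR-181a and a miR-181b gene with 0 genes between the partners. MIR181A2 and MIR181B2 lie within the span of NR6A1, a gene for a nuclear receptor, and MIR181A1 and MIR181B1 within the spans of 2 genes for long non-coding RNAs.

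Values are given as normalized counts, which are reads divided by a size factor of the library. The HH22 libraries held 46912793 to 88471588 reads and the HH18 libraries 6276121 to 31318393 reads, so depth and stage cannot be told apart. HH18 replicates 5 and 6 were the shallowest. Among the lists of miRNAs known from several cell types, the summed blood and endothelium miRNAs were uneven between libraries. They stood at 2089 normalized counts in HH22 replicate 4 and 306 to 343 in the other HH22 libraries. In HH18 replicate 5 they stood at 14371, and at 233 to 2041 in the other HH18 libraries. The 2 libraries with the highest sum of their stage also held the least miR-181a-5p of their stage, and whether the 2 are connected was not tested. Intervals and limits given below cover counting error only, and the spread between libraries may be partly technical. In such dissected tissue, more cells with a miRNA and more of it per cell cannot be told apart.

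miR-181a-5p took most of the reads of the family and stood higher at HH22. It held 417033, 386655, 350299 and 318624 normalized counts in HH22 replicates 1 to 4, against 161641, 168487, 237550 and 208141 in HH18 replicates 5 to 8. Every HH22 library lay above every HH18 library. The mean was 368153 ± 42831 at HH22 and 193955 ± 35565 at HH18 (SD, n = 4 each), a ratio of 1.90. On the scale of log2(normalized count + 1) the fold change was 0.94 (SE 0.14). By mean level it ranked 7 among all features. Within single libraries it ranked 5 to 6 at HH22 and 7 to 9 at HH18. It made up 1.24% ± 0.19 of the reads at HH22 and 0.692% ± 0.18 at HH18 (SD, n = 4 each). Within HH18, the 2 shallowest libraries held the lowest values. Without replicates 5 and 6 the log2 fold change was 0.72 (SE 0.15).

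The paralog miR-181b-5p showed the same order of stages with a smaller difference, except under a scaling that left out the 5 leading features. Under that scaling the row had -0.0080 (SE 0.11) on the log2 scale. It held 97609, 86021, 69871 and 75456 normalized counts in HH22 replicates 1 to 4, against 55091, 51315, 69111 and 63545 in HH18 replicates 5 to 8. The groups were separated only by the narrow gap between HH22 replicate 3 and HH18 replicate 7. As a share of library reads, 0.276% ± 0.043 at HH22 and 0.213% ± 0.042 at HH18 (SD, n = 4 each), the stages overlapped, because HH18 replicate 7 lay above HH22 replicates 3 and 4. Means were 82239 ± 12241 at HH22 and 59765 ± 8060 at HH18 (SD, n = 4 each), a ratio of 1.38, and the log2 fold change was 0.46 (SE 0.14). Without HH18 replicates 5 and 6 this was 0.30 (SE 0.15). Its overall abundance rank was 13. No other feature of the table had reads identical to those of miR-181a-5p or miR-181b-5p, but reads of such similar strands can still be shared between their estimates.

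The opposite strands differed less in relation to their spread. miR-181a-3p, whose row does not say which of the 2 miR-181a genes it comes from, held 11671, 11851, 13217 and 12316 normalized counts in HH22 replicates 1 to 4, against 8990, 11762, 9103 and 11133 in HH18 replicates 5 to 8. HH18 replicate 6 lay inside the HH22 range, so the stages overlapped. Means were 12264 ± 691 at HH22 and 10247 ± 1411 at HH18 (SD, n = 4 each), with a log2 fold change of 0.27 (SE 0.13), or -0.20 with the 5 leading features left out of the scaling. This strand ranked 32 by abundance.

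miR-181b-1-3p, the 3p strand of the MIR181B1 hairpin, was scarce. It held 257, 296, 359 and 246 normalized counts in HH22 replicates 1 to 4, against 122, 284, 300.5 and 95.5 in HH18 replicates 5 to 8. HH18 replicates 6 and 7 lay within the HH22 range, while replicates 5 and 8 lay far below it. The low pair rested on 53 reads (exact 95% Poisson interval 39.7 to 69.3) and 75 reads (59.0 to 94.0). Replicate 6 rested on similarly few, 68 reads (52.8 to 86.2), and replicate 7 on 376 (339 to 416). In normalized counts the intervals of the low pair were 91.7 to 160 and 75.1 to 120. They do not reach those of replicates 6 (221 to 360) and 7 (271 to 332). Means were 290 ± 50.9 at HH22 and 201 ± 107 at HH18 (SD, n = 4 each), with a log2 fold change of 0.68 (SE 0.47). It was 0.39 without HH18 replicate 8, 0.23 on the deposited log2 values and 0.22 with the 5 leading features left out of the scaling.

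The strand of the other copy, miR-181b-2-3p, had 1 read in HH22 replicate 3 and 0 reads in the other 7 libraries. With 3 reads taken as the most that a count of 0 allows, the limit was 0.0339 to 0.478 reads in 1000000, depending on the library. Over all 8 libraries miR-181b-1-3p had 2819 reads and miR-181b-2-3p 1 read. This difference is between the 3p strands of the 2 miR-181b genes. miR-181b-5p is a single row, and its reads cannot be divided between the copies.

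**Figure D1:**
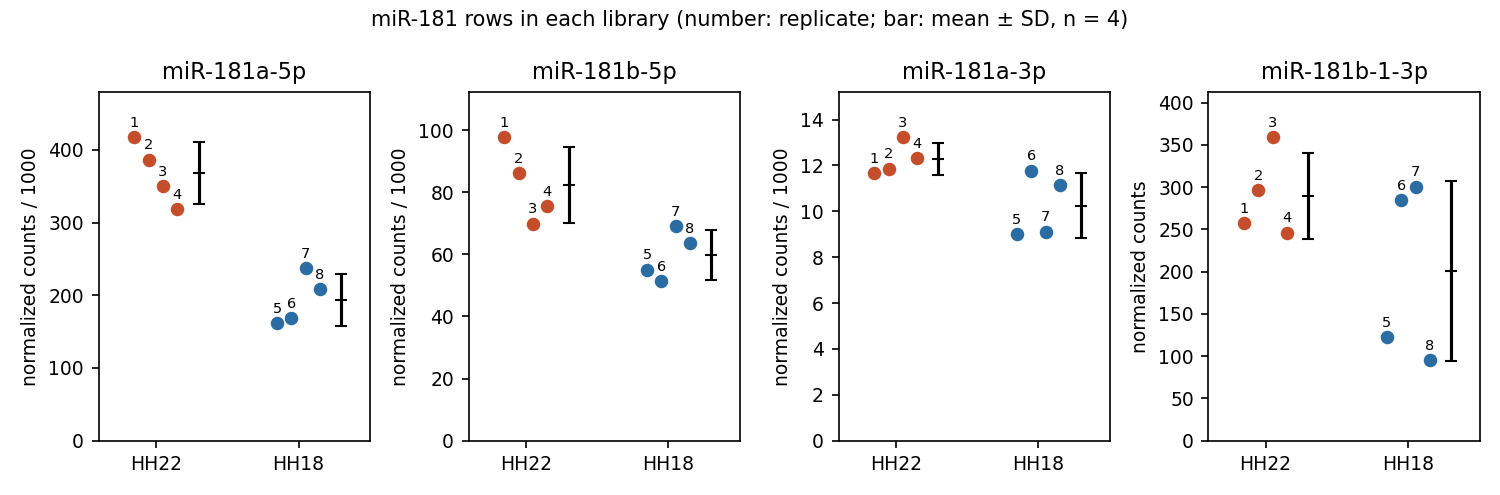
Normalized counts (vertical axes, from 0, in units of 1000 except for miR-181b-1-3p) of the 4 miR-181 rows with reads in every library, at HH22 and HH18. Points are libraries labelled by replicate, and bars give the mean ± SD (n = 4). As scaled here, the HH22 points lie above all HH18 points for miR-181a-5p and miR-181b-5p, and the stages overlap for miR-181a-3p and miR-181b-1-3p.

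Of the 5 rows, 4 passed the filter on low values (4 or more libraries with 1 or more normalized counts), and all 4 had reads in all 8 libraries. In the fit over all 356 tested features, miR-181a-5p and miR-181b-5p were among the 52 features past the threshold (limma, Benjamini-Hochberg adjusted p under 0.05). That is 2 of 4 members, both higher at HH22, beside 14.6% of all tested features called in either direction and 9.83% called as higher. The same 2 of 4 had every HH22 library above every HH18 library, which held for 11.5% of all tested features. The features called as higher include miR-133a-3p, which met the filter through the deeper HH22 libraries alone. How many others did so was not counted. Since the family was picked with this contrast known, nothing is read from these shares. The median log2 fold change of the 4 members was 0.57, and that of all 356 tested features 0.38. Over the 79 tested features that averaged 1000 normalized counts or more, the median was 0.13. Of those 79, 22 passed as higher and 8 as lower, a larger part than among all 356 tested features.

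**Figure D2:**
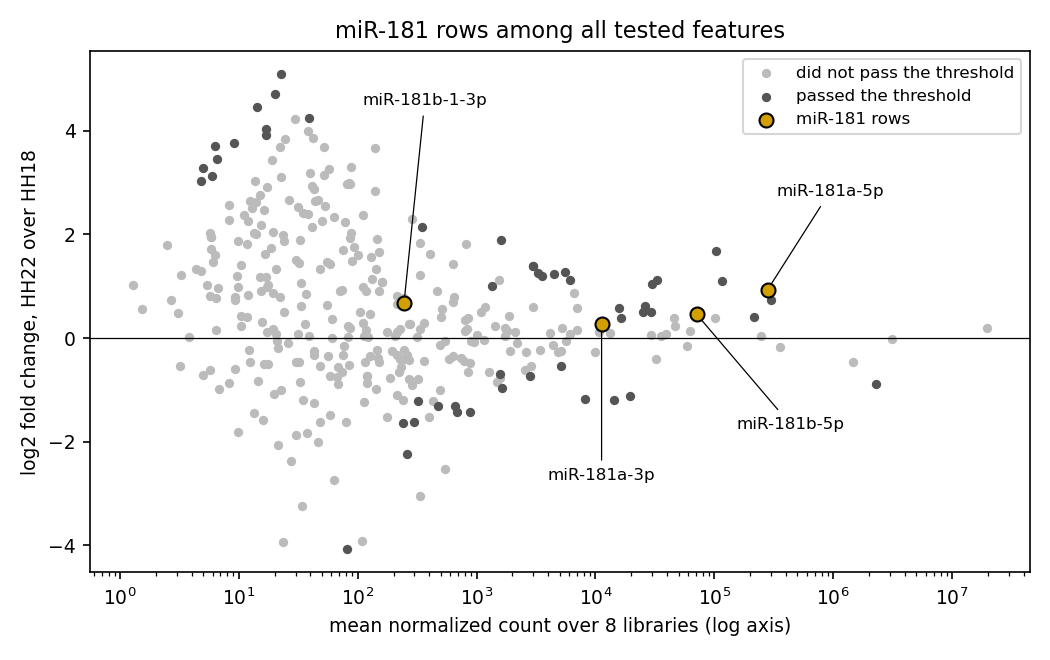
Log2 fold change of HH22 over HH18 (vertical axis) against the mean normalized count over 8 libraries (horizontal log axis) for the 356 tested features. Dark grey points passed the threshold, light grey points did not, and yellow points are the 4 tested miR-181 rows. miR-181a-5p lies at 0.94 among the most abundant features, and the scarce features to the left have the widest scatter.

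The size of these differences depended on the setting, which is again a description of the contrast that was known beforehand. miR-181a-5p had log2 fold changes between 0.47 and 1.04 over 19 alternative settings and was past the threshold in each. For miR-181b-5p they ran from -0.0080 to 0.53, and it was past the threshold in 5 of 19. Leaving out any of HH22 replicates 1, 2 and 4 or HH18 replicates 5, 6 and 8 ended its call, as did leaving out HH18 replicates 5 and 6 together, and it passed without HH22 replicate 3 or HH18 replicate 7. Scaling the libraries by the reads outside the 5 most abundant features moved the median over all tested features by -0.43 on the log2 scale, and 24 features then passed as higher and 47 as lower, beside 35 and 17 with the scaling used here. Under that scaling miR-181a-5p had a log2 fold change of 0.47, which lies 0.52 above the shifted median. miR-181b-5p then had -0.0080 (SE 0.11) and miR-181a-3p -0.20 (SE 0.14), and neither passed the threshold. The signs of miR-181b-5p and miR-181a-3p thus changed with that scaling, but the value of miR-181b-5p lay within its SE of 0. The features left out were miR-100-5p, miR-99a-5p, miR-183, miR-92-3p and miR-125b-5p. The remaining reads, by which the libraries are then scaled, include those of miR-181a-5p itself. Relative to the median of all tested features, miR-181a-5p stood 0.56 higher in the main scaling and 0.52 to 0.88 higher over the alternatives. miR-181b-5p stood 0.083 higher, a value that moved to 0.034 without HH18 replicate 8, to between 0.14 and 0.19 without HH22 replicate 2, 3 or 4 or HH18 replicate 5 or 6, and to 0.40 on the deposited log2 values. With a pseudocount of 8, a mean of at least 10, voom or thinning it stood 0.22 to 0.31 higher. In those settings its own log2 fold change was 0.44 to 0.46, and the median over all tested features was 0.14 to 0.22.

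**Figure D3:**
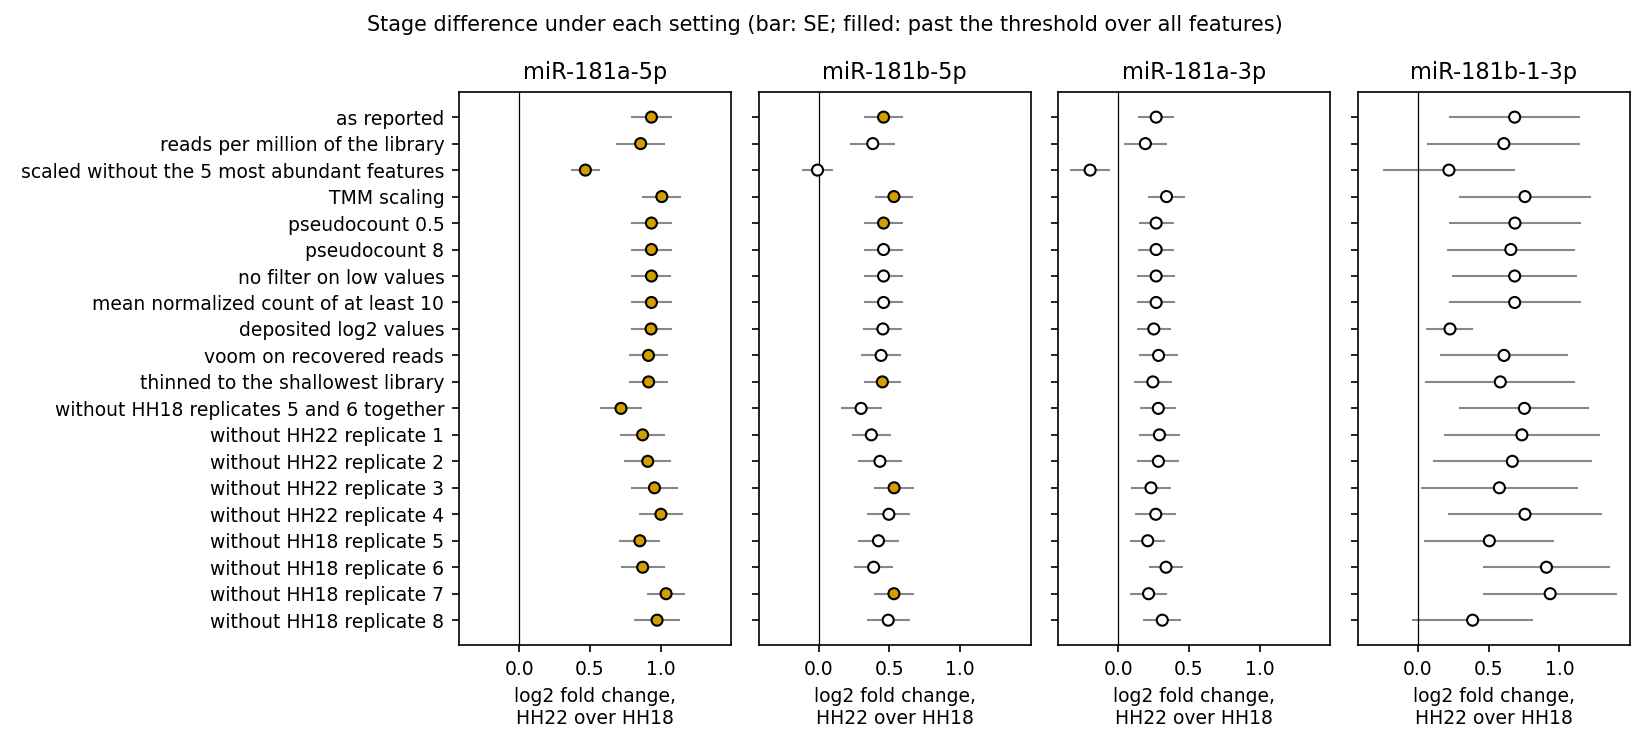
Log2 fold change of HH22 over HH18 (horizontal axes, the same range in each panel) of the 4 tested miR-181 rows under the reported setting and 19 alternatives (rows). Bars are the SE, and filled points were past the threshold over all tested features. Every point of miR-181a-5p is filled, and the points of miR-181b-5p and miR-181a-3p fall below 0 only where the 5 most abundant features were left out of the scaling.

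Ratios of 2 strands within a library do not depend on how libraries are scaled. miR-181a-5p was more abundant than miR-181b-5p in 8 of 8 libraries, by 1.93 ± 0.27 on the log2 scale (SD, n = 8; exact two-sided sign-flip permutation p = 0.0078, the smallest that 8 libraries can give). Different small RNAs are ligated and amplified with different efficiency, so this is a ratio of reads, not of molecules. The p-value was fixed at its smallest once miR-181a-5p exceeded miR-181b-5p in every library. The test was also chosen with earlier results of these data known.

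The ratio of the paralogs separated the stages as well, which is again a description of the contrast known beforehand. There were 4.27, 4.49, 5.01 and 4.22 reads of miR-181a-5p per read of miR-181b-5p in HH22 replicates 1 to 4, against 2.93, 3.28, 3.44 and 3.28 in HH18 replicates 5 to 8. The HH22 libraries all lay above the HH18 libraries, and within HH18 the mean ratio was 3.11 over the shallow replicates 5 and 6 and 3.36 over replicates 7 and 8. The mean log2 ratio was 2.17 ± 0.11 at HH22 and 1.69 ± 0.097 at HH18 (SD, n = 4 each), a difference of 0.48. This is the gap between the log2 fold changes of the 2 rows given above, not a separate result. How often the ratio of other pairs of features separates the stages was not counted. Of all reads of the family, miR-181a-5p took 79.5% ± 1.0 at HH22 and 73.2% ± 1.5 at HH18 (SD, n = 4 each). miR-181b-5p took 17.7% ± 1.1 at HH22 and 22.7% ± 1.1 at HH18 (SD, n = 4 each), again without overlap. These shares are parts of 1 total and largely restate the ratio.

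Neither the miR-181a-5p row nor the miR-181a-3p row says which of the 2 miR-181a genes its reads come from. Their ratio is therefore not known to be that of the arms of a single hairpin. Taken as rows, the 5p strand had more reads than the 3p strand. It exceeded miR-181a-3p in 8 of 8 libraries, by 4.57 ± 0.45 on the log2 scale (SD, n = 8; exact two-sided sign-flip permutation p = 0.0078, again the smallest possible). There were 35.7, 32.6, 26.5 and 25.9 reads of the 5p strand per read of the 3p strand in HH22 replicates 1 to 4, against 17.98, 14.3, 26.1 and 18.7 in HH18 replicates 5 to 8. HH18 replicate 7, the deepest library of its stage, fell just inside the HH22 range, and the other 3 HH18 libraries lay below it. The mean log2 ratio was 4.90 ± 0.23 at HH22 and 4.23 ± 0.36 at HH18 (SD, n = 4 each). As for the paralogs, these are ratios of reads, not of molecules, and a bias shared by all libraries would not show in the test. Here too the p-value was fixed once 5p exceeded 3p in every library, and the test was chosen with earlier results known.

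For miR-181b the 5p row cannot be divided between the 2 genes, whereas miR-181b-1-3p is the 3p strand of MIR181B1. Reads of the 5p row per read of miR-181b-1-3p spread widely. The ratio ran from 195 to 379 at HH22 and from 180 to 666 at HH18, so the HH18 range enclosed the HH22 range. The 2 highest HH18 ratios came from replicates 8 and 5, which held the fewest normalized counts of this 3p strand. Together the 3p rows held 2.75% ± 0.43 of the reads of the family at HH22 and 4.04% ± 0.91 at HH18 (SD, n = 4 each), with overlap between the stages.

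**Figure D4:**
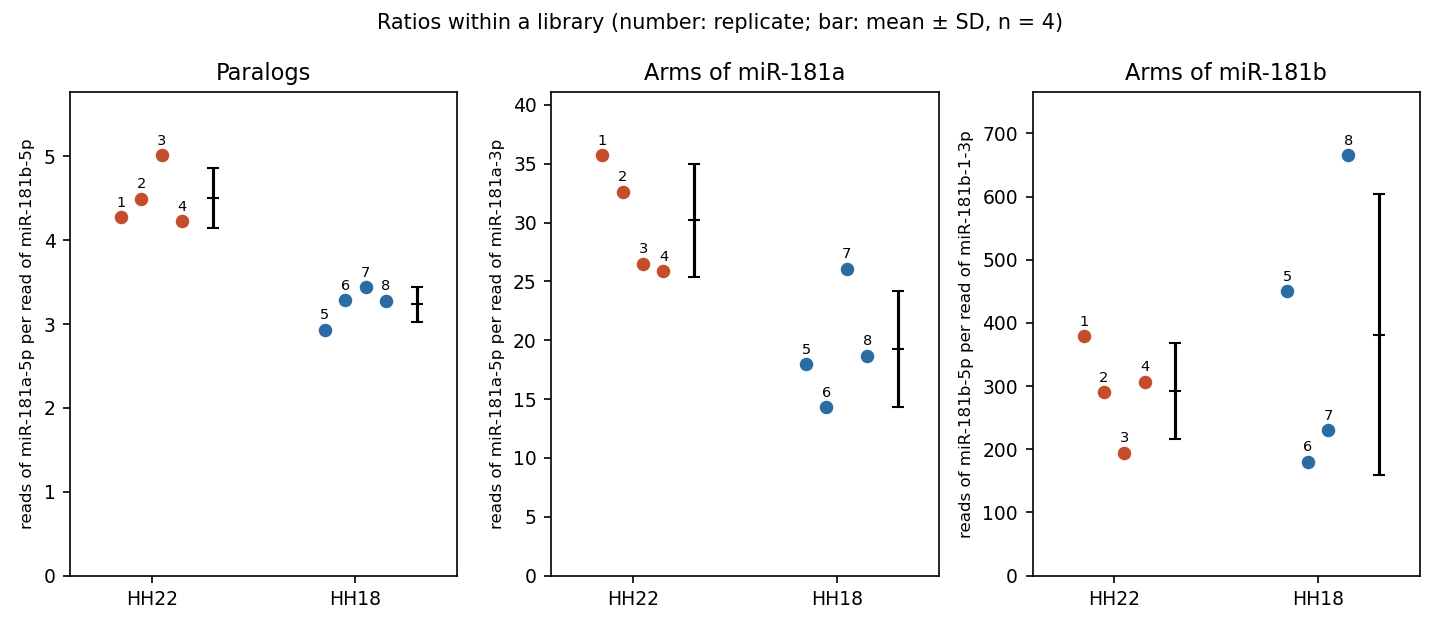
Reads of miR-181a-5p per read of miR-181b-5p (left), of miR-181a-5p per read of miR-181a-3p (middle) and of miR-181b-5p per read of miR-181b-1-3p (right) in each library, at HH22 and HH18. Points are libraries labelled by replicate, bars give the mean ± SD (n = 4), and the axes start at 0. The paralog ratio separates the stages, and the miR-181a arm ratio overlaps through HH18 replicate 7. For the miR-181b arm ratio the HH18 range encloses the HH22 range.

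The features most like miR-181a-5p were found by Pearson's r of log2(normalized count + 1) over the 8 libraries among all tested features. They were miR-30d (r = 0.995), miR-221-3p (r = 0.990) and miR-30a-5p (r = 0.982), each of which was higher at HH22 and past the threshold. A higher level at HH22 largely follows from this choice, because miR-181a-5p itself separated the stages. The log2 fold change of miR-30d was 0.63 (SE 0.13), that of miR-221-3p was 0.59 (SE 0.13) and that of miR-30a-5p was 1.04 (SE 0.15). miR-181b-5p ranked 13 in this order (r = 0.936) and miR-181a-3p ranked 96 (r = 0.589). With the mean of each stage taken off, miR-30d (r = 0.983), miR-200b-3p (r = 0.973) and miR-221-3p (r = 0.949) were closest, and miR-181b-5p had r = 0.879. miR-200b-3p, an epithelial miRNA, had a log2 fold change of 0.13 (SE 0.21). The 3p row of miR-181a had r = -0.27 with miR-181a-5p once stage means were taken off.

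The features most like miR-181b-5p were miR-181a-5p (r = 0.936), miR-219a (r = 0.935) and miR-30d (r = 0.935). With stage means taken off they were miR-6665-5p (r = 0.902), miR-1761 (r = 0.889) and miR-181a-5p (r = 0.879). miR-6665-5p was scarce, with 11.6 ± 13.6 normalized counts at HH22 and 23.8 ± 28.3 at HH18 (SD, n = 4 each), and miR-1761 held 746 ± 303 at HH22 and 1008 ± 218 at HH18 (SD, n = 4 each). These values of r describe 8 libraries that were scaled together and whose depth differed between the stages. Depth also differed within a stage, which taking off stage means does not remove. Within HH18, miR-181a-5p, miR-30d and miR-221-3p were lowest in the shallow replicates 5 and 6 and highest in the deepest, replicate 7. At HH22 all were highest in the deepest library, replicate 1, but next in the shallowest, replicate 2. Whether depth bears on these r was not tested.

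**Figure D5:**
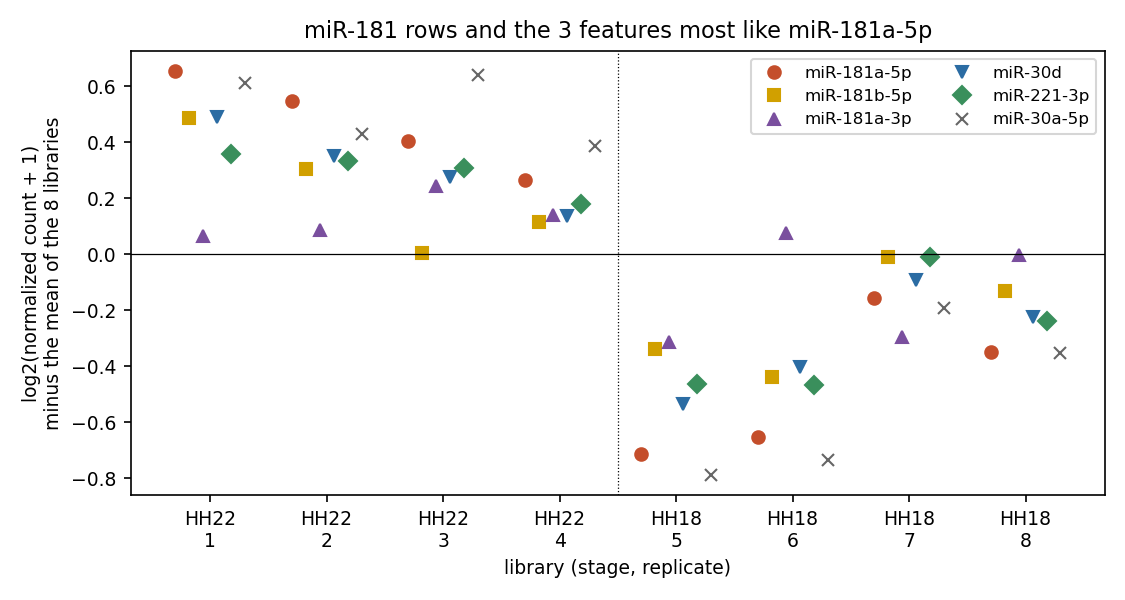
Level of each feature in each library as log2(normalized count + 1) minus its mean over the 8 libraries (vertical axis), for 3 miR-181 rows and the 3 features most like miR-181a-5p. The horizontal axis gives stage and replicate. miR-181a-5p lies above 0 in all HH22 libraries and below 0 in all HH18 libraries, as do miR-30d, miR-221-3p and miR-30a-5p, whereas miR-181a-3p is above 0 in HH18 replicate 6.

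Lists of miRNAs known from several cell types were set beside the family. Beside their counts, 9.83% of all 356 tested features passed as higher and 14.6% in either direction. The median log2 fold change over those 356 features was 0.38. Nothing about a list is read from its count of members past the threshold. In the blood and endothelium list 0 of 8 tested members passed, and 9 of 9 members had at least 1 read. Its 2 most abundant tested members were miR-451, of red blood cells (log2 fold change -0.41, SE 1.35), and miR-142-5p, of white blood cells (-2.53, SE 2.59). The median log2 fold change of that list was -0.76. Without HH18 replicate 5, the library with the highest blood sum, miR-181a-5p had a log2 fold change of 0.85, and without HH22 replicate 4 it had 1.00. HH18 replicate 6 had the next highest sum of its stage (2041), and without it the value was 0.87. HH18 replicates 5 and 6 were also the shallowest libraries, and without both miR-181a-5p had 0.72 (SE 0.15). Whether blood or depth bears on these values was not tested.

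The epithelium list held 454127 to 612969 summed normalized counts at HH22 and 264084 to 375690 at HH18, with no overlap as scaled here. As a share of library reads the stages overlapped, because HH18 replicate 7 lay above HH22 replicate 4. Of its 9 tested members 2 rose, miR-205a (log2 fold change 1.09, SE 0.16) and miR-203a (1.69, SE 0.11), and 1 fell, miR-200b-5p (-1.18). The median was 0.38, beside 0.38 over all tested features. Its part in the stage difference of miR-181a-5p was not tested.

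The mesenchyme list held 40465 to 44706 summed normalized counts at HH22 and 25750 to 29651 at HH18. Of its 5 tested members 3 rose and 0 fell, with a median log2 fold change of 0.57. The third was miR-199-5p (1.90). miR-140-3p, known from cartilage, had a log2 fold change of 0.50 (SE 0.097), and miR-199-3p, known from mesenchyme, of 1.20 (SE 0.32). Most of the sum came from miR-140-3p, with means of 34206 at HH22 and 24276 at HH18. miR-214 (0.57) and miR-140-5p, from the other arm of the miR-140 hairpin (-0.14), did not pass. Whether cells of mesenchyme contribute to the levels of miR-181 was likewise not tested.

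Of 15 tested members of the neural list 1 rose, miR-219a (log2 fold change 1.25), and 1 fell, miR-9-5p (-1.20), and the median was 0.054. The list held 379988 to 518735 summed normalized counts at HH22 and 391529 to 582160 at HH18, most of them from miR-125b-5p (log2 fold change -0.17, SE 0.16), with miR-128-3p next (0.046, SE 0.14). In the striated muscle list, of interest because of the role of the family in mouse myoblasts, 8 of 13 members had 0 reads, and 1 of 3 tested members, miR-133a-3p, was past the threshold as higher. It had 0 reads in the 4 HH18 libraries and met the filter through the deeper HH22 libraries alone, so nothing is read from that call. The whole list summed to 12.6 to 92.0 normalized counts at HH22 and 0 to 38.2 at HH18. Its 2 most abundant tested members, miR-499-5p (log2 fold change 1.72, SE 1.24) and miR-1a-3p (2.02, SE 1.18), did not pass, and no median is given for a list of so few reads. Those members of these lists that are not the 2 most abundant were named after their values were seen.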

How the data were processed

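Small RNA from the ectoderm of the frontonasal ectodermal zone was sequenced in 8 libraries, 4 at HH22 and 4 at HH18, using miRNeasy RNA isolation and TruSeq small RNA libraries, as the labels' protocols state. Tools in the submitters' processing notes are kallisto 0.44.0, cutadapt 1.8.1 and bcl2fastq. Neither the build nor the reference was stated (not given in the sources used here), and no coordinates or sequences are printed. The authors deposited 1 log2 value per feature and library. How these log2 values were made is not stated. Their shared minimum of 8.52 and their steps match a variance-stabilizing transformation of counts, and inverting it gave whole multiples of 1 step (tolerance 0.001) for 100% of values above 0. The multiples are called reads, and the inverted values normalized counts. As kallisto estimates counts, a read is a rounded estimate.

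Features with at least 1 normalized count in at least 4 libraries were fitted with limma-trend on log2(normalized count + 1) for HH22 against HH18, with two-sided p-values adjusted by Benjamini-Hochberg over 356 features at 0.05. A count test planned for raw counts was not used, as the deposited values are not counts. Such a fold change can differ from the ratio of means for scarce features. Strand ratios were tested with an exact sign-flip permutation test. The fit was also run on simulated counts, and no result is drawn from that here. The simulation took the size factors as known, so it does not cover the choice of scaling. Members, lists and tests were chosen with earlier results of these data known. Named were all members, the 3 features most like each of the 2 most abundant members with and without stage means, and, of each list, the 2 tested members with the highest mean. Alternatives changed scaling, pseudocount (0.5 or 8), filter, test, depth or libraries. Sample numbers differ in every library, so nothing was paired. Gene names and neighbours came from the RefSeq annotation of GRCg7b. Fits used limma 3.58.1 in R 4.3.3, and the rest Python 3.11.15 with matplotlib 3.10.9, scipy 1.17.1, pandas 2.3.3 and numpy 2.4.6.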

Additional observations from a re-analysis of the deposited data

Results flagged for a closer look

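Among 24 groups of 4 libraries looked at (4 miR-181 rows, 3 strand ratios and 5 lists at each stage), 2 held a library far from the other 3. Chance alone gives about 1 in 20, which is 1.2 of 24 groups. Both concern the summed blood and endothelium miRNAs. HH22 replicate 4 stood at 2089 normalized counts, against 306 to 343 in the other HH22 libraries. HH18 replicate 5 stood at 14371, against 233 to 2041 in the other HH18 libraries. No miR-181 row or strand ratio had such a library.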

How the results depend on the processing

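For miR-181a-5p the direction and the side of the threshold were kept in 19 of 19 alternatives. The log2 ratios of miR-181a-5p to miR-181b-5p and to miR-181a-3p also kept both in all alternatives run on them. Each ratio was above 0 in 8 of 8 libraries, so leaving 1 library out could change neither. The pseudocounts are small beside these counts, so these alternatives add no support. miR-181b-1-3p did not pass in any of 19. The call of miR-181b-5p was lost when scaled to the total reads of the library (log2 fold change 0.38), a pseudocount of 8 (0.46), no filter (0.46), a mean of at least 10 (0.46), the deposited log2 values (0.45), voom (0.44) and without HH18 replicates 5 and 6 together (0.30). With 1 library left out its log2 fold change ran from 0.37 to 0.53. Scaled without the 5 most abundant features, miR-181b-5p had -0.0080 (SE 0.11) and miR-181a-3p -0.20 (SE 0.14). These were the 2 values that changed sign, and neither passed the threshold. The number of features past the threshold was 52, 24 with no filter (651 features tested) and 27 to 66 with 1 library left out. It was 27, 29, 29 and 27 without HH22 replicates 1, 2, 3 and 4. Of these, 18, 20, 20 and 17 were higher and 9, 9, 9 and 10 lower. The filter still asked for 4 libraries, so features that met it through the 4 HH22 libraries alone were no longer tested. The features tested were then 322, 332, 324 and 330. How much of the smaller numbers comes from this was not tested. Thinned to 6276121 reads per library, miR-181a-5p had 0.92 and miR-181b-5p 0.45, both past the threshold. The shallowest library, HH18 replicate 6, still held 40294 and 12272 reads of these rows, so thinning could change their values little. It evens out the number of reads only, and depth and stage still cannot be told apart. No paired analysis was possible because every sample number is different. Depth limits the scarce 3p strands of miR-181b, and it differed between the stages throughout.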
